A study of Mus musculus with 4 samples.

Results

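The visceral endoderm of the yolk sac is the epithelium that feeds the early mouse embryo, and 10 of its genes are described here. They encode secreted carrier proteins (*Afp*, *Ttr*, *Rbp4*), apolipoproteins (*Apom*, *Apoa1*, *Apoa2*, *Apoa4*, *Apob*) and the receptor pair for nutrient uptake (*Amn*, *Cubn*). They were chosen by name: every spot other than a control spot whose gene name on the array was one of these symbols was taken. All 10 were found among the 37074 gene names on the array, and each was represented by its brightest probe.

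RNA from whole embryos labelled C57BL/6 had been hybridized to 4 one-colour Agilent mouse arrays on 1 slide, where the brightness of a spot after Cy3 labelling measures 1 transcript. The study's text names C57BL/6J for the mice in which the mutant line was made. Each genotype, WT or *Dyrk2*-/-, was arrayed once at E8.5 and once at E10.5. E8.5 and E10.5 are days of embryonic development. The mutant alleles are small deletions made with the CRISPR/Cas9 nickase system, and mice of 3 deletion patterns were bred. Neither the deletion carried by the arrayed embryos, nor the number of embryos behind each RNA, nor whether the yolk sac had been dissected away is given in the sources used here. A single array stands for each group, so there is no replicate check and no test between genotypes within a stage, and the precision is limited by how few arrays there are.

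Before the liver works, the visceral endoderm makes most of the serum proteins of the embryo, among them alpha-fetoprotein, transthyretin and the apolipoproteins, and it packs maternal lipid into lipoprotein particles. At its apical surface, cubilin and amnionless together take up vitamin B12, lipoproteins and other proteins by endocytosis. The same serum proteins are later made by hepatocytes, which arise from the foregut as the liver bud grows, so that several of these genes mark both tissues in turn.

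Values are log2 of the processed intensity minus the 75th percentile of that array, so that 0 is the level of a fairly bright probe. A flag of the scanner software tells which probes stood well above background: of 56605 probes, 55.4% in WT and 53.4% in *Dyrk2*-/- embryos at E8.5, and 56.2% in WT and 56.4% in *Dyrk2*-/- embryos at E10.5. For probes printed 5 or more times, the spots of such a probe had a median SD of 0.09 (WT) and 0.12 (*Dyrk2*-/-) at E8.5 and of 0.07 (WT) and 0.08 (*Dyrk2*-/-) at E10.5. This spread is that of repeated spots and holds nothing of the variation among embryos. Each probe of the 10 genes was printed once, and where it was well above background the error estimated by the software was at most 19.9% of the signal. No spot was saturated.

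The targeted gene did not check the labels. The brightest *Dyrk2* probe read 0.06 on the WT array and 0.76 on the array labelled *Dyrk2*-/- at E8.5, then −0.31 and 0.34 at E10.5. It was thus 1.62-fold and 1.57-fold higher, not lower, on the arrays labelled *Dyrk2*-/-, and the other *Dyrk2* probe was 1.02-fold and 1.21-fold higher. With spike-in scaling the E8.5 difference of the brightest probe was 0.14 (log2). A probe outside a small deletion cannot show it, and where these probes lie relative to the deletions was not determined. The arrays are therefore called by their labels throughout, on which all directions between WT and mutant depend.

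The 3 carriers were measured above background on all 4 arrays. *Afp*, which encodes alpha-fetoprotein, the albumin-like serum protein of the embryo, read 3.46 on the WT and 2.89 on the labelled *Dyrk2*-/- array at E8.5, then 4.03 and 3.76 at E10.5. *Rbp4*, which encodes the blood carrier of retinol, read 4.50 and 3.90 at E8.5, then 1.78 and 1.49 at E10.5. *Ttr*, which encodes transthyretin, the partner of retinol-binding protein and a carrier of thyroid hormone, read 2.50 and 1.88 at E8.5, then −0.69 and −1.24 at E10.5. At both stages each carrier was lower in the labelled *Dyrk2*-/- embryos at these probes, but with embryonic day they parted: *Afp* was higher at E10.5 than at E8.5 in both genotypes, whereas *Rbp4* and *Ttr* were far lower.

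The difference between genotypes at E8.5 was 1.48-fold for *Afp*, 1.51-fold for *Rbp4* and 1.54-fold for *Ttr*. At E10.5 it was 1.20-fold, 1.22-fold and 1.46-fold. Between the stages, *Rbp4* was 6.58-fold lower at E10.5 in WT and 5.31-fold lower in the labelled *Dyrk2*-/- embryos, and *Ttr* was 9.13-fold and 8.65-fold lower. *Afp* went the other way, 1.49-fold and 1.83-fold higher. A dimmer *Ttr* probe, below background at E10.5, was 2.01-fold lower in the labelled *Dyrk2*-/- embryos at E8.5, and from E8.5 to E10.5 it was at least 5.15-fold lower in the labelled *Dyrk2*-/- embryos (in WT the log2 bound was −3.32). Where a signal was below background on 1 array, such a bound used for that array its own value or, if higher, that of the dimmest probe well above background there.

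Of the apolipoproteins, 4 were measured above background on all 4 arrays. *Apom*, the carrier of sphingosine 1-phosphate on lipoproteins, read 2.95 and 2.41 at E8.5, then 0.05 and −0.25 at E10.5 (WT and then the array labelled *Dyrk2*-/-, as in the sentences that follow). *Apoa1*, the main protein of high-density lipoprotein, read 0.28 and −0.27 at E8.5, then −4.19 and −4.41 at E10.5. *Apob*, the scaffold of the large lipid-rich particles that yolk sac, gut and liver secrete, read 0.52 and −0.12 at E8.5, then −3.85 and −4.35 at E10.5. *Apom*, *Apoa1* and *Apob* were lower at E10.5 in both genotypes, and *Apoa1* and *Apob* were close to the background limit at E10.5, where the dimmest probes still well above background read −4.72 and −4.77.

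*Apoa4*, an apolipoprotein of gut and yolk sac particles, read −0.71 and −1.45 at E8.5 and was not well above background at E10.5 (−6.78 and −6.82). *Apoa2*, the other major protein of high-density lipoprotein, read 1.21 and 1.13 at E8.5, then 1.57 and 1.34 at E10.5. It was the flattest of the 10 genes across the 4 arrays, and with *Afp* the only one that was not lower at E10.5.

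At E8.5, *Apoa4* was 1.67-fold, *Apob* 1.55-fold, *Apoa1* 1.47-fold and *Apom* 1.45-fold lower on the array labelled *Dyrk2*-/-, while *Apoa2* was 1.06-fold lower. The probes of *Apoa2* did not agree on the size, since the dimmer probe was 1.40-fold lower. The probes of *Apob* did not agree either, since the dimmer one, whose coordinates span 1615 bases, was 1.11-fold lower. At E10.5, *Apob* was 1.41-fold, *Apom* 1.23-fold, *Apoa2* 1.17-fold and *Apoa1* 1.16-fold lower, and no fold could be given for *Apoa4*. Under a normexp background correction, which adds an offset and so shrinks the ratios of dim probes, the *Apoa1* difference at E10.5 turned to 0.047 (log2, higher) and that of *Apob* shrank from −0.50 to −0.062.

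Between the stages, *Apoa1* was 22.2-fold lower at E10.5 in WT and 17.6-fold in the labelled *Dyrk2*-/- embryos, *Apob* 20.7-fold and 18.8-fold, and *Apom* 7.45-fold and 6.31-fold. *Apoa4* was at least 16.1-fold and at least 9.98-fold lower. *Apoa2* was 1.28-fold and 1.16-fold higher at its brightest probe, and 1.49-fold and 1.68-fold at the other.

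The uptake receptors fell the most steeply among the genes measured in both WT arrays. *Amn*, whose product amnionless anchors cubilin in the membrane, read 1.05 and 0.24 at E8.5 and −4.30 at E10.5 in WT, and at −4.77 it was below background in the labelled *Dyrk2*-/- embryos of that stage. *Cubn*, which encodes cubilin, the receptor that binds the complex of intrinsic factor and vitamin B12, read 2.67 and 1.88 at E8.5, then −2.51 and −2.30 at E10.5. At E8.5 these genes had the largest genotype differences among the brightest probes of the 10, with *Amn* 1.75-fold and *Cubn* 1.72-fold lower in the labelled *Dyrk2*-/- embryos. They parted at E10.5, since *Amn* was at least 1.38-fold lower (log2 −0.034 under the normexp correction) and *Cubn* was 1.15-fold higher (log2 0.20, and 0.071 without scaling, 0.14 under the normexp correction and 0.36 with spike-in scaling). From E8.5 to E10.5, *Amn* was 40.8-fold lower in WT and at least 32.2-fold lower in the labelled *Dyrk2*-/- embryos, and *Cubn* was 36.1-fold and 18.2-fold lower.

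**Figure D1:**
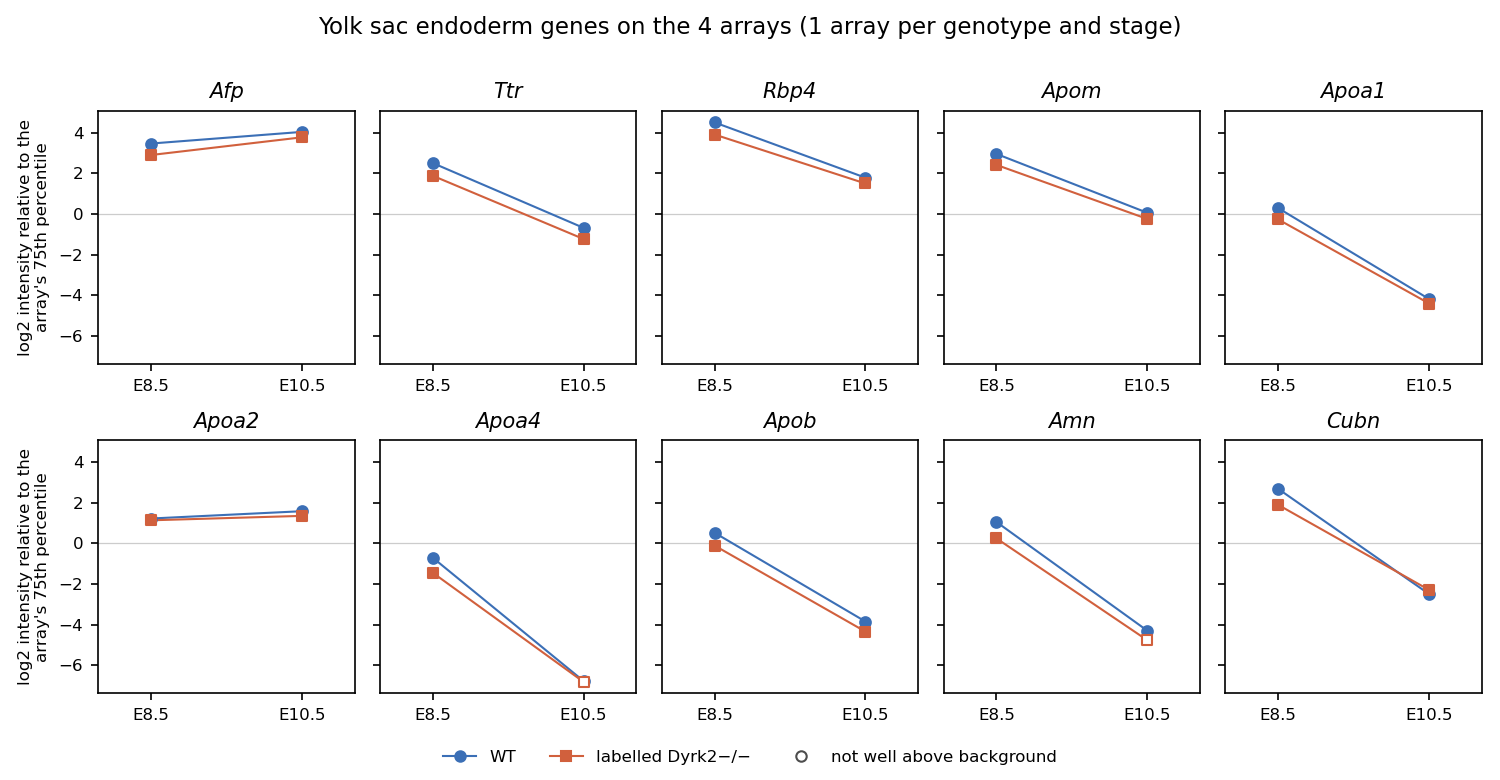
Log2 intensity relative to the 75th percentile of the array (vertical axis) of the brightest probe of each of the 10 genes at E8.5 and E10.5 (horizontal axis), with 1 array per point, circles for WT, squares for the arrays labelled *Dyrk2*-/- and open symbols where the probe was not well above background. Levels compare between arrays within a panel and not between panels: 8 genes lie lower at E10.5 in both genotypes, *Afp* and *Apoa2* do not, and the lines cross for *Cubn*, at −2.51 in WT and −2.30 in the labelled *Dyrk2*-/- embryos.

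Taken over the 10 genes, 6 were 1.5-fold or more lower on the E8.5 array labelled *Dyrk2*-/-, where 6.5% of the 20709 genes compared were. In such bulk RNA, fewer cells of a type and less RNA per cell cannot be told apart. The 6 were *Amn*, *Cubn*, *Apoa4*, *Apob*, *Ttr* and *Rbp4*, and 0 were 1.5-fold or more higher (5.14% of all genes, or 11.6% for both directions). The threshold divides values that lie close together: apart from *Apoa2*, the log2 ratios ran from −0.81 to −0.54, and between 3.89% and 7.39% of all genes compared had a lower ratio than each of these 9. All 10 were lower by some amount, as were 53.5% of all genes, and the median log2 ratio was −0.61 against −0.02 over all genes. On the same array 13 of 14 erythroid genes were 1.5-fold or more higher, and their part in the result was not tested.

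The size of this difference depended on the threshold and the scaling. At 2-fold, 0 of the 10 genes passed in either direction, where 2.71% of all genes were lower and 1.79% higher. Scaling by the spike-in control probes moved the median log2 ratio of all genes at E8.5 by −0.56 and no scaling moved it by −0.26, so that 10 and 9 of the 10 genes then passed 1.5-fold, as did 49.8% and 15.3% of all genes. With quantile normalization, the deposited table or the mean over probes 5 passed (between 6.50% and 6.71% of all genes), and under the normexp correction 4 (1.65%). A scaling adds 1 constant per array, so the median of the 10 relative to that of all genes (−0.59) is fixed under these scalings by construction. At E10.5 the same scalings moved the median of all genes by 0.16 and −0.13.

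At E10.5, 0 of the 9 genes that could be compared passed 1.5-fold downward in the labelled *Dyrk2*-/- embryos (4.22% of 21209 genes) and 0 were higher (3.51%, or 7.73% for both directions). The 8 genes other than *Cubn* were lower by some amount, with log2 ratios from −0.55 to −0.22, where 50.1% of all genes were lower. The median was −0.29, against −0.00033 over all genes. Without scaling between arrays, 3 of the 9 passed the threshold, as did 6.54% of all genes.

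The genotype difference at E10.5 minus that at E8.5 was above 0, that is, less negative or turned, in 8 of 9 genes, with a median of 0.30 (log2) and a range from −0.14 for *Apoa2* to 0.99 for *Cubn*. Over all genes 52.8% were above 0. No residual remains for a test of this difference. The E10.5 arrays also differed in sex-linked RNA: *Xist*, expressed from the inactive X chromosome, was well above background only on the array labelled *Dyrk2*-/-, at least 20.4-fold above the WT array, and *Eif2s3y* of the Y chromosome was at least 43.2-fold lower there, which cannot be told apart from genotype at that stage. Between the stages in the labelled *Dyrk2*-/- embryos, *Xist* was at least 17.9-fold higher and *Eif2s3y* at least 60.1-fold lower at E10.5. The part of this in that stage comparison was not tested.

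Across both stages, a limma model with the embryonic day as a block was fitted to 20901 genes with 1 residual degree of freedom. It called 0 of the 10 genes for genotype at an adjusted p under 0.05 (Benjamini-Hochberg), where 0.00957% of all genes were called lower and 0.00478% higher. All 10 coefficients were negative, from −0.64 for *Amn* (SE 0.20) to −0.16 for *Apoa2* (SE 0.13). In limma, 6 of the 10 had an unadjusted p under 0.05, as did 1021 of all 20901 genes. The smallest adjusted p in limma was that of *Ttr* (log2 −0.59, SE 0.13, adjusted p = 0.409), lower at both stages. Limma called 6 of the 10 genes lower without scaling between arrays (1.65% of all genes) and 3 without a filter on dim probes (0.575%), and 0 under the other alternatives.

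For the 8 genes other than *Afp* and *Apoa2*, the change with embryonic day was much larger than the difference between genotypes. For *Afp* it was 0.57 (log2) in WT and 0.87 in the labelled *Dyrk2*-/- embryos, against genotype differences of −0.56 (E8.5) and −0.27 (E10.5). For *Apoa2* it was 0.36 and 0.22, against −0.09 and −0.23. In WT, 8 of the 10 passed 1.5-fold as lower at E10.5 (17.5% of 21643 genes), as did 8 in the labelled *Dyrk2*-/- embryos (13.9% of 21266 genes), namely all but *Afp* and *Apoa2*. In WT 0 were 1.5-fold or more higher (18.8% of all genes) and in the labelled *Dyrk2*-/- embryos 1 was, *Afp* (17.6%). In both directions together, 36.4% of all genes passed in WT and 31.5% in the labelled *Dyrk2*-/- embryos, and 55.6% and 54.3% were lower by some amount. The medians were −3.78 and −3.62, against −0.08 and −0.05 over all genes. The 2 comparisons of stages share no array with each other, but each shares an array with each comparison of genotypes, so that a lower E8.5 value enters both.

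In the same limma model, with the same limit on its SEs and p-values, the embryonic day was called for 8 of the 10 genes as lower at E10.5 (19.5% of all genes) and for 1 as higher (16.5%). The 8 had log2 coefficients from −5.72 to −2.56, SEs from 0.13 to 0.35 and adjusted p-values between 3.13e-06 and 1.63e-05 in limma, although for *Apoa4* and *Amn* the fit includes values below background. *Afp* was higher in both genotypes (log2 0.72, SE 0.13, adjusted p = 0.00338 in limma), and *Apoa2* missed the threshold (log2 0.29, SE 0.13, adjusted p = 0.116 in limma). With spike-in scaling, which moved the median stage difference of all genes in the labelled *Dyrk2*-/- embryos by 0.67, *Afp* was no longer called.

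Of 27 other secreted proteins of the visceral endoderm, 24 could be compared at E8.5 and 10 were 1.5-fold or more lower on the array labelled *Dyrk2*-/-, 0 higher, with a median log2 ratio of −0.49. Of these 10, 8 were well above background on both arrays, while *Fga* (at least 1.58-fold lower) and *Gc* (at least 1.17-fold) were so only in WT, and 9 passed by their bounds. Under the normexp correction 5 of the 24 were lower, with a median of −0.32. *Apoc2*, the activator of lipoprotein lipase, was 2.20-fold lower, and *Serpinc1*, which encodes antithrombin, was 2.10-fold lower at its brightest probe. At E10.5, 3 of 22 were lower, with a median of −0.16 that became 0.0028 with spike-in scaling, namely *Serpina6* (1.75-fold), the corticosteroid carrier, *Vtn* (log2 −0.59), which encodes vitronectin, and *F2* (log2 −0.59), which encodes prothrombin. With either the normexp correction or spike-in scaling 1 of the 22 was lower, *Serpina6*. With embryonic day, 9 of 25 were lower and 11 higher at E10.5 in WT, and 4 of 23 were lower and 11 higher in the labelled *Dyrk2*-/- embryos. *Spink1*, a trypsin inhibitor, and *Apoc2* were far lower, with log2 stage differences of −8.15 and −6.93 in WT and of −6.85 and −6.32 in the labelled *Dyrk2*-/- embryos.

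Of 13 surface and intracellular markers of the same epithelium, 5 were 1.5-fold or more lower at E8.5 on the array labelled *Dyrk2*-/- and 0 higher, with a median of −0.34. Under the normexp correction 3 were lower. *S100g*, a calcium-binding protein of absorptive epithelia, was 1.94-fold lower, and *Rhox5*, an X-linked homeobox gene, was 1.86-fold lower. The others were *Pdzk1* (1.73-fold), *Dpp4* (1.67-fold) and *Vil1* (1.56-fold), which belong to the brush border of absorptive cells. At E10.5, 0 of 11 were lower and 1 was higher, *Slc39a8*, a metal ion transporter (1.96-fold, and 1.59-fold and 1.33-fold at its other probes), and the median was 0.11, which turned negative without scaling (−0.03). In WT, 12 of the 13 were lower at E10.5, with a median of −3.54, *S100g* had a log2 bound of −6.13 and *Pdzk1* a log2 difference of −4.93. In the labelled *Dyrk2*-/- embryos 11 were lower and 1 was higher at E10.5, *Slc39a8* (2.11-fold), with a median of −2.41.

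Among 14 endocytic partners and vitamin B12 carriers, 1 was lower at E8.5, *Gif* (1.51-fold), which encodes intrinsic factor and turned to 0.011 (log2) under the normexp correction, and 1 was higher, *Fcgrt* (2.18-fold), the IgG receptor. *Fcgrt* read −4.56 in WT, near the −4.82 of the dimmest probe well above background there. Under the normexp correction or with spike-in scaling 0 of the 14 were higher, and 0 and 7 were lower (1.65% and 49.8% of all genes). With embryonic day *Fcgrt* was higher by 2.86 (log2) in WT and 1.53 in the labelled *Dyrk2*-/- embryos. *Lrp2*, which encodes megalin, the receptor that cooperates with cubilin, was 5.41-fold lower at E10.5 in WT and 3.46-fold in the labelled *Dyrk2*-/- embryos. Its probes did not agree, since a dim one had log2 stage differences of −0.03 in WT and 0.57 in the labelled *Dyrk2*-/- embryos. Among 22 genes of lipoprotein assembly and lipid transfer, 1 of 19 compared was lower at E8.5, *Soat2* (1.51-fold), which esterifies cholesterol and had log2 stage differences of −2.76 and −1.99. Its other probe was 1.15-fold lower at E8.5, and 0 of the 19 were lower with quantile normalization, the normexp correction, the deposited table or the mean over probes. With spike-in scaling 9 were lower and without scaling 2 (49.8% and 15.3% of all genes). *Mttp*, which loads lipid onto the *Apob* product, had a log2 stage difference of −1.99 in WT and −1.35 in the labelled *Dyrk2*-/- embryos, but −0.64 and 0.09 at its other, dimmer probe. At E10.5, 1 of 14 partners of the receptors was higher, *Gif* (at least 1.85-fold, and none under the normexp correction), and 0 of 20 lipoprotein genes passed in either direction.

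Among 12 genes of retinol binding and storage, 8 could be compared at E8.5. *Rbp7*, a cellular retinol-binding protein, was 1.65-fold lower and *Rbp3*, the retinoid carrier of the eye, was 2.15-fold higher. Under the normexp correction 0 of the 8 were lower, and with spike-in scaling 4 were lower and 0 higher (49.8% and 1.34% of all genes). At E10.5, 0 of 7 passed. *Stra6l*, a receptor for retinol-binding protein, had log2 stage differences of −1.40 in WT and −2.03 in the labelled *Dyrk2*-/- embryos, and those of *Rbp7* had bounds of −1.58 and −0.90. *Lrat* was below background on all 4 arrays, and *Crabp2* was not analysed here.

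Liver bud genes ran against the stage change of the 10. Of 22 listed, 9 of 15 were 1.5-fold or more higher at E10.5 in WT and 3 lower, with medians of 1.15 in WT and 1.03 in the labelled *Dyrk2*-/- embryos. Under the normexp correction 6 were higher and 2 lower in WT, and the medians were 0.36 and 0.27. *Alb*, which encodes albumin, was not well above background at E8.5 and read −0.42 and −0.93 at E10.5, and *Onecut1*, a hepatoblast transcription factor, had log2 stage differences of 3.53 and 2.85. Between genotypes, 5 of 13 were lower and 1 higher at E8.5, with *Ahsg* 1.97-fold, *Slc2a2* 1.76-fold, *Hp* at least 1.66-fold, *Afm* at least 1.51-fold and *Gc* at least 1.17-fold lower and *Itih4* at least 1.26-fold higher, since the counts use values without bounds. By their bounds 4 were lower and 0 higher, and of these 6 only *Ahsg* and *Slc2a2* were well above background on both arrays. At E10.5, 2 of 12 were lower, *Hp* (1.78-fold) and *Itih3* (at least 1.82-fold). Under the normexp correction 0 passed in either direction at either stage, and the E8.5 median went from −0.09 to 0.016. *Serpina1a*, *Gc* and *Apoh* stand in this list and in that of secreted proteins. The probes of the *Serpina1* family can bind closely related transcripts.

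Of 18 transcription factors of visceral and liver endoderm, 4 of 16 compared were 1.5-fold or more lower at E8.5 on the array labelled *Dyrk2*-/- and 1 was higher, with a median of −0.39 (−0.08 under the normexp correction). *Foxa2* was 2.08-fold lower and *Hnf4a*, a nuclear receptor that drives serum protein genes in visceral endoderm and liver, was 1.97-fold lower. *Hhex* (1.82-fold) and *Nr5a2* (1.51-fold) were also lower, and *Nr1h4* was at least 1.56-fold higher, whereas 0 were higher under the normexp correction or with spike-in scaling. At E10.5, 2 of 15 were lower, among them *Eomes* (1.75-fold), and under the normexp correction 0 were. In WT, 10 of 16 were lower and 3 higher at E10.5, and *Hnf4a* had a log2 stage difference of −2.22 in WT and −1.36 in the labelled *Dyrk2*-/- embryos.

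Markers of other cells that an embryo preparation can hold were read on the same arrays, as a list and with the level of each list summed (1 being the 75th percentile of the array). The 10 yolk sac genes summed to 61.0 on the WT and 40.6 on the labelled *Dyrk2*-/- array at E8.5, with *Rbp4* the brightest (37.1% and 36.9% of the sum), and to 24.8 and 20.5 at E10.5, with *Afp* the brightest (66.0% and 66.1%). Because probes differ in brightness, a sum compares between arrays and does not rank genes by abundance. Of 14 erythroid genes found among 15, 13 were 1.5-fold or more higher on the E8.5 array labelled *Dyrk2*-/- and 0 lower, with a median log2 ratio of 4.51. At E8.5 they summed to 23.5 in WT and 395 in the labelled *Dyrk2*-/- embryos, with *Hbb-bh1* the brightest, and at E10.5 to 1389.7 and 1631, with *Hbb-y* the brightest. *Hbb-y*, the embryonic beta-like globin, was 63.8-fold and *Slc4a1*, the anion exchanger of red cells, 34.1-fold higher at E8.5, and with embryonic day they were higher by 8.29 and 7.23 (log2) in WT and by 2.32 and 3.25 in the labelled *Dyrk2*-/- embryos. In WT at E8.5, 11 of the 14 stood well above background, and *Klf1* was among those that did not. At E10.5, 9 of 14 were higher, with *Ahsp* 2.52-fold. Globin probes can bind transcripts of related genes. *Epb42* was not analysed here.

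For parietal endoderm, trophoblast and decidua, 23 of 24 genes were found (*Prl2c2* was not analysed here), and 3 of 14 compared were higher and 2 lower at E8.5. At E8.5 they summed to 72.7 in WT and 66.5 in the labelled *Dyrk2*-/- embryos, and at E10.5 to 54.4 and 55.9, and *Lama1* was the brightest but for the labelled *Dyrk2*-/- embryos at E10.5, in which *Gcm1* was. *Prl8a2*, a prolactin-family gene of the decidua, was 2.72-fold higher at E8.5 in the labelled *Dyrk2*-/- embryos. *Elf5* was 1.82-fold and *Gcm1* 1.59-fold lower. *Prl3d1* and *Prl3d2*, which mark trophoblast giant cells, were well above background only on the E8.5 array labelled *Dyrk2*-/- (at least 6.62-fold and at least 4.76-fold higher). There *Prl3d1* read −2.09, *Prl3d2* −2.57 and *Prl8a2* −1.61, against 4.39 for *Lama1*, so these prolactin-family genes add little to the summed level. *Tpbpa*, *Ctsj*, *Ctsq*, *Ctsm*, *Syna*, *Synb* and *Prl8a9* were below background on all 4 arrays. At E10.5, 1 of 12 was lower, *Cdx2* (1.63-fold), and 0 under the normexp correction or with spike-in scaling. Between the stages *Srgn* was higher by a log2 of at least 2.96 in WT and at least 2.52 in the labelled *Dyrk2*-/- embryos, but by 1.27 and 1.41 at its other probe. The part of maternal or placental RNA in the result was not tested.

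For gut endoderm of the embryo proper, 12 genes were listed, and 0 of 11 compared passed in either direction at E8.5. By some amount 8 were lower, as were 53.5% of all genes. With spike-in scaling 8 passed as lower, as did 49.8% of all genes. Whether these genes mark gut endoderm alone was not tested, and *Foxa2* and *Hhex*, lower at E8.5, stand in the list of transcription factors. At E8.5 this list summed to 181 in WT and 159 in the labelled *Dyrk2*-/- embryos, and at E10.5 to 38.0 and 45.1, and *Krt18* was its brightest gene on all 4 arrays. At E10.5, 2 of 11 were lower, *Nkx2-1* (2.28-fold), a lung and thyroid factor, and *Cdx2*, which stands in this list and in that of trophoblast. With either the normexp correction or spike-in scaling 1 was lower, *Nkx2-1*. The log2 stage difference of *Cdx2* was −5.83 in WT and −6.05 in the labelled *Dyrk2*-/- embryos, and that of *Nkx2-1* was at least 3.19 in WT and at least 1.71 in the labelled *Dyrk2*-/- embryos. Among 12 genes of vessels, mesothelium and allantois, 2 of 11 were higher at E8.5, *Upk3b* (2.02-fold) and *Postn* (log2 0.76). With spike-in scaling 0 of the 11 were higher and 2 lower (1.34% and 49.8% of all genes). At E10.5, 1 was higher (*Postn*, 2.38-fold) and 1 lower (*Lyve1*, at least 1.43-fold, so that 0 passed by the bound). The summed level of these was 15.4, 19.4, 21.3 and 23.1 (WT and labelled *Dyrk2*-/- at E8.5, then E10.5), with *Kdr* the brightest, and *Wt1* and *Vcam1* were higher at E10.5, by 2.51 and 2.36 (log2) in the labelled *Dyrk2*-/- embryos. In WT *Vcam1* was higher by 2.20 at its brightest probe and by 0.00071 at the other, which was higher by at least 0.53 in the labelled *Dyrk2*-/- embryos. The part of these lists in the result was not tested.

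The arrays carried the genes of the labelled tissue. Of 14 genes of heart, neural tube and somites, 13 were well above background on all 4 arrays, among them *Myl7*, *Sox2* and *Meox1*, and *Myf5* on none. Of these 13, 0 were 1.5-fold or more different between genotypes at either stage. With spike-in scaling, where 49.8% of all genes were lower at E8.5, 7 of the 13 were. At E8.5 these summed to 209.9 in WT and 214 in the labelled *Dyrk2*-/- embryos, and at E10.5 to 137 and 135, led by *Myl7* in the labelled *Dyrk2*-/- embryos at E8.5 and by *Myl4* on the other arrays. *Sox2* stands in this list and in that of gut endoderm. *Nes* had a log2 stage difference of 2.57 and *Nkx2-5* of −2.27 in WT.

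**Figure D2:**
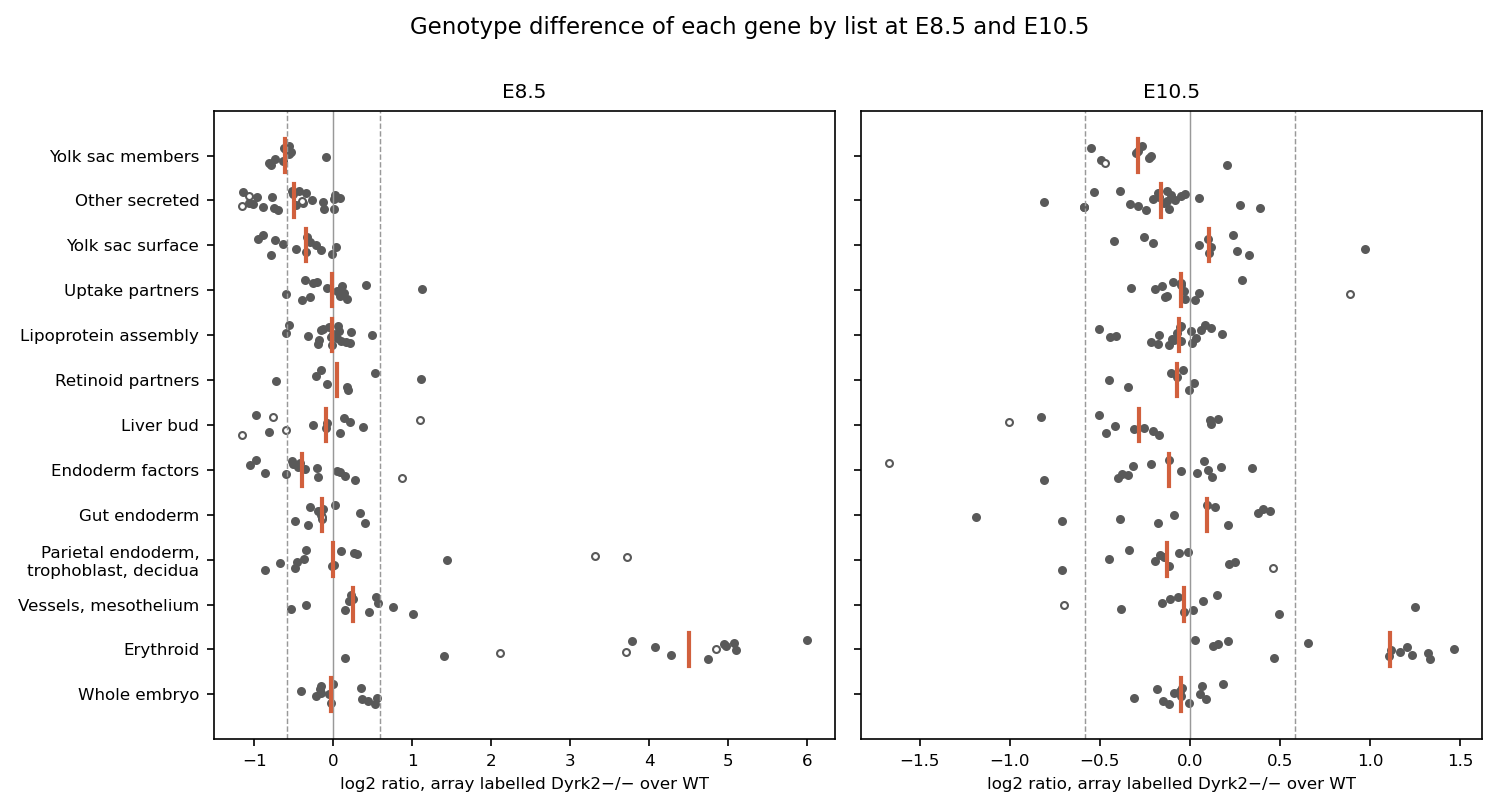
Log2 ratio of the array labelled *Dyrk2*-/- over WT (horizontal axis, with its own scale at each stage) for the genes of each list (rows) at E8.5 and E10.5, each point being the brightest probe of a gene and open where it was well above background on only 1 of the 2 arrays. Orange bars are medians and dashed lines mark 1.5-fold: at E8.5 the bar of the 10 yolk sac genes lies at −0.61, that of the erythroid genes at 4.51 and that of the whole-embryo genes at −0.03.

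A mean profile was taken over the 8 members well above background on all 4 arrays, which leaves out *Amn* and *Apoa4*. To see which genes ran most like it, the log2 profile of each gene over the 4 arrays was centred on its own mean. It was compared with the mean centred profile of those 8 (1.57, 1.02, −1.16 and −1.43, for WT and labelled *Dyrk2*-/- at E8.5 and then E10.5). Of 18678 other genes, *Slc22a18* was the nearest, with a root mean square distance of 0.06 (log2), followed by *Sp5* (0.11), *9130007G19Rik* (0.12), *Thbs4* (0.12) and *Agpat9* (0.12). The distances of the members themselves were 0.02 for *Rbp4*, 0.09 for *Apom*, 0.30 for *Ttr*, 0.85 for *Apoa1*, 0.86 for *Apob*, 1.06 for *Cubn*, 1.45 for *Apoa2* and 1.66 for *Afp*. Nearer to the mean than *Apoa1* were 857 other genes, than *Apob* 865, than *Cubn* 2653, than *Apoa2* 14157 and than *Afp* 16680. A gene near the mean is thus not near each member.

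Promoters were read because the members move together with stage in the main, while *Afp* and *Apoa2* do not. The RefSeq promoter table (GRCm38.p6, from 250 bases before to 50 after the start) held 11 promoters of 9 of the members. On both strands, TGTTTAC, of the FOXA factors, occurred in 2 of these 11 promoters and in 3.65% of all 32851. AGATAA, of the GATA factors, occurred in 0 and in 11.2% of all, and CAAAGTCC, of HNF4, in 0 and in 1.42%. No match overlapped another. A further motif was searched, and its matches are not given here. A match describes letters and not a bound site.

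The following promoters are shown with matches in capitals, each on the strand of the gene. *Apoa2* (at 1 of its starts) is, with *Afp*, a member that was not lower at E10.5. *Rbp4* (also at 1 of its starts, with no match at the other) lay nearest to the mean profile, of which it is itself a part. *Cubn*, with no match, differed between genotypes in opposite directions at the 2 stages. A link between a match and the level of a gene was not tested. The match lies 77 bases before the start in *Apoa2* and, on the opposite strand, 241 before it in *Rbp4*.
*Apoa2*, chr1:171224804-171225103, plus strand: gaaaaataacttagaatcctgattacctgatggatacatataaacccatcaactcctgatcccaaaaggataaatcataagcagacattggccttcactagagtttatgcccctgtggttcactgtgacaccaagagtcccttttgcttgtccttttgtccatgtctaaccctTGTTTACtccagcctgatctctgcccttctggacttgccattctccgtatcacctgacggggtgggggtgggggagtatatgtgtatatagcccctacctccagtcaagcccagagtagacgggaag
*Rbp4*, chr19:38125272-38125571, minus strand: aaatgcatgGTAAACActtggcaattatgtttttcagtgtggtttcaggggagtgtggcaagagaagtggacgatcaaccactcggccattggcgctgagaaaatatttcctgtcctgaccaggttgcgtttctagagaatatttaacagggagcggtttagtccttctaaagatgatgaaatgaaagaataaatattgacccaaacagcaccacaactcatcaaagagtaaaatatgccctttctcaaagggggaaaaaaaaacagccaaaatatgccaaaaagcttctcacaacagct
*Cubn*, chr2:13491827-13492126, minus strand: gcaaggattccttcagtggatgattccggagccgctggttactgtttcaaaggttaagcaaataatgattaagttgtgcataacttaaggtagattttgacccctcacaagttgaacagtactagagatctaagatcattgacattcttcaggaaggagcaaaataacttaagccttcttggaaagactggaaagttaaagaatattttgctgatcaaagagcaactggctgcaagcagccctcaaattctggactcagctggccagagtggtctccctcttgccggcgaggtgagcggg

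Probe positions on the array are given in mm9. The brightest probe of *Afp* lies at chr5:90937781-90937840, that of *Rbp4* at chr19:38191129-38191188, that of *Cubn* at chr2:13197978-13198037 and that of *Amn* at chr12:112514095-112514243, a span of 149 bases. No exon map of this build was used here.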

How the data were processed

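Processed intensity values (background-subtracted and detrended within each array, not scaled between arrays) were taken from the deposited scanner output of the authors, and an intensity table that the authors deposited for the same 4 arrays served as an alternative after log2. For each probe, the mean log2 intensity of its spots was used, leaving out outlier spots, less the array's 75th percentile. Being well above background meant that at least 50% of the spots of a probe carried that mark. A gene was its brightest probe by the mean over 4 arrays, and it was compared where 1 or both arrays of the pair had it well above background. A difference was called at 1.5-fold, which is the fold named in the study's text, from values without bounds.

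Genotype and stage were also fitted over all 4 arrays with limma 3.58.1 in R 4.3.3 (embryonic day and genotype as terms, intensity trend, Benjamini-Hochberg over 20901 genes well above background on at least 2 arrays). Tables were made with Python 3.11.15, numpy 2.4.6 and pandas 2.3.3. The model was also run on simulated data with a single noise level for all genes and, in the genes changed, the same genotype effect at both stages. That run does not check the p-values of the real data, and its outcome is not given here. The alternatives were quantile normalization, normexp background correction (offset 50), scaling by 7 of the 10 spike-in probes, no scaling, the deposited table, a stricter filter and no filter on dim probes, the mean over probes, a 2-fold threshold, a Z-score of 2, and limma without the trend.

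The 10 genes and all gene lists were chosen with earlier results of these data known. The genes named are *Dyrk2*, the 10 genes with every probe, from each list up to 2 genes that were most higher and 2 that were most lower past 1.5-fold in each genotype comparison where both arrays were well above background, up to 2 of the most changed between stages, and the 5 nearest profiles. Other genes named to complete a count of 5 or fewer, or as brightest or below background, were chosen after their values were seen. So were the criterion for opposite directions at the 2 stages and the spread of 0.17 (log2) used to judge whether a value moved between settings.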

Additional observations from a re-analysis of the deposited data

Results flagged for a closer look

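A gene was singled out where its genotype difference (log2, array labelled *Dyrk2*-/- minus WT) had opposite signs at E8.5 and E10.5, each larger than the spread of repeated spots and 1 of them at 1.5-fold or more, with the gene well above background on all 4 arrays. The difference between the stages was not tested for any of them. The share of all genes on the array that met these criteria is not given here. Whether the genes named below are more than such a share was therefore not tested.

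*Cubn*, the receptor cubilin, was the only one of the 10 yolk sac genes so placed, with −0.79 at E8.5 and 0.20 at E10.5, which differ by 0.99. Of the other absorptive and secretory genes, *Spink1* went from −1.02 to 0.28 (difference 1.30), *Rhox5* from −0.90 to 0.24 (1.14) and *Pdzk1* from −0.79 to 0.33 (1.12). Another *Rhox5* probe read −0.88 and −0.03. *Soat2* went from −0.59 to 0.18 (0.77), and its other probe read −0.20 at E8.5 and was below background at E10.5. *Gcm1*, a trophoblast factor, went from −0.67 to 0.25 (0.92), but its other probes were split, with −0.55 and 0.36 at 1 of them and −1.10 and −0.11, without a turn of sign, at the other.

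The opposite order, higher at E8.5 and lower at E10.5, held for *Fcgrt* with 1.13 and −0.20 (difference −1.32), *Rbp3* with 1.11 and −0.45 (−1.55) and *Eomes* with 0.27 and −0.81 (−1.08).

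Each of these 9 genes missed the criteria under at least 1 alternative. Without scaling 3 met them (*Pdzk1*, *Fcgrt* and *Rbp3*), and at E10.5 *Cubn* then read 0.071, *Spink1* 0.15, *Rhox5* 0.11, *Soat2* 0.046 and *Gcm1* 0.12. With spike-in scaling 6 met them, but *Fcgrt* read 0.56 and −0.035, *Rbp3* 0.55 and −0.29, and *Eomes* −0.29 and −0.65, with the same sign at both stages. Under the normexp correction 4 met them (*Spink1*, *Rhox5*, *Rbp3* and *Gcm1*), and with the mean over probes 5 did (*Cubn*, *Spink1*, *Fcgrt*, *Rbp3* and *Eomes*). The deposited table and quantile normalization each gave 8, all but *Soat2*.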

How the results depend on the processing

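The members' median at E8.5 was negative under every alternative run, from −1.17 to −0.56, and 10 of 10 members were lower. At E10.5 it ran from −0.42 to −0.12. The limma fit with embryonic day as a block is the analysis paired by stage. Signals below background at E10.5 limit what can be said of *Apoa4* and *Amn* there. Where no construction is named, the cause was not tested.

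With spike-in scaling, 10 members were lower at E8.5 (median −1.17), among 10594 genes past the threshold, of which 97.4% were lower against 55.8% in the main analysis. The members' median stage difference in the labelled *Dyrk2*-/- embryos was −2.96, 2 members were higher there, and 12126 genes passed, 7.78% of them lower against 44.2%. At E10.5, 30.8% of the genes that passed were lower against 54.6%. The members' median difference between the stages' genotype effects was 1.02, against 0.75 over all genes, of which 95.1% were above 0. Limma called 10 genes lower and 17 higher for genotype, and 405 lower and 1500 higher for stage, with 0 members higher.

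With no scaling, the medians were −0.87 at E8.5, −3.60 for stage in WT and −3.32 in the labelled *Dyrk2*-/- embryos. At E10.5, 3 members were lower, and 1 was higher with stage in WT. At E8.5 3685 genes passed, 86.2% of them lower. At E10.5 71.1% were lower, with stage in WT 33.1% against 48.2%, and in the labelled *Dyrk2*-/- embryos 20.5%. Limma called 344 genes lower and 73 higher for genotype, with 6 members lower, and 1959 lower and 5780 higher for stage, with 2 members higher.

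With normexp, *Apoa1* at E10.5 turned to 0.047. The genes past the threshold numbered 612 at E8.5, 329 at E10.5 (44.1% lower), 4736 with stage in WT and 3490 in the labelled *Dyrk2*-/- embryos, where the members' medians were −2.75 and −2.34 and 1 member was higher in WT. Limma called 1 gene lower and 13 higher for genotype. With quantile normalization, and with the deposited table, 1 member was higher with stage in WT, and with the deposited table limma called 10 genes higher for genotype.

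A stricter threshold passes fewer genes by construction. At 2-fold, 0 members were lower at E8.5 and 0 higher with stage in the labelled *Dyrk2*-/- embryos, and 932 (E8.5), 611 (E10.5), 4226 (stage, WT) and 3560 genes (stage, labelled *Dyrk2*-/-) passed. With a Z-score beyond 2 required besides 1.5-fold, the same counts were 0, 0, 861, 755, 1413 and 1345.

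The filters change which genes are tested. Without one, 6801, 5164, 12054 and 10805 genes passed in that order of comparisons, and limma called 213 genes lower and 210 higher for genotype, with 3 members lower. With the filter on both arrays, 1455 (E8.5) and 848 genes (E10.5) passed, and the members' stage medians were −3.19 and −2.89. On all arrays, limma called 1 gene lower for genotype. With the mean over probes it called 11 genes higher for genotype and 2 members higher for stage. Without the intensity trend it called 0 genes lower and 0 higher for genotype and 1977 lower for stage.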
